A study of Danio rerio with 6 samples.

Results

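Genes of intestinal absorption and lipid uptake were followed in RNA from zebrafish neuroblastomas. The genes were vil1, anpepb, slc15a1b, cd36, fabp2, fabp6, apoea, apobb.1, mttp and cdx1b, 10 of the 14781 gene symbols of the count table. All 10 were present, 9 under these symbols and mttp under its older symbol mtp. They were taken by name but chosen by their knockout against MYCN-only values, in which intestinal genes such as apoea, cd36 and slc15a1b stood lower in knockout. Their levels in that comparison are therefore given as a description. Calls from the fit of all genes are reported but are no test of these genes.

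Tumours of fish with MYCN overexpression and a gas7 knockout (knockout, 3 libraries) were compared with tumours of fish with MYCN overexpression only (MYCN-only, 3 libraries). All 6 tumours thus overexpress MYCN, and the labels place them in the peripheral sympathetic nervous system. The labels name neither the promoter behind MYCN, nor the gas7 mutation, nor the age of the fish. The series title frames the comparison as a question about metastasis of MYCN-driven neuroblastoma. Separate fish are not stated for the replicates, so SDs and p-values measure only how far these libraries differ.

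Enterocytes, the absorptive cells of the gut lining, carry a brush border of microvilli on which digestion ends and uptake begins. Peptides and fatty acids are carried across this border, and inside the cell fatty acids are bound by small carrier proteins and rebuilt into triglyceride. Triglyceride is then loaded onto apolipoprotein B by the microsomal triglyceride transfer protein and leaves the cell as a lipoprotein. The last steps are shared with the liver, which secretes lipoproteins of its own.

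Total counts ran from 20310441 to 33305326 in knockout tumours, against 12054844 to 16624086 in MYCN-only. Levels are given as CPM, read counts divided by library sizes that were scaled by the trimmed mean of M values (TMM), and sets of 3 values are in the order of libraries 1, 2 and 3 of a group. The sympathetic label was checked with 18 noradrenergic genes. They summed to 6015 to 13749 CPM in knockout tumours, against 8028 to 9861 CPM in MYCN-only libraries, with th and dbh the highest. phox2ba was read in knockout library 2 only. Of 17 tested, 6 were lower in knockout without overlap between the groups (35.3%) and 0 higher, beside 12.3% and 11.6% of all tested genes. gas7a had 14.85, 13.93 and 10.03 CPM in knockout tumours, against 23.0, 9.69 and 32.7 CPM in MYCN-only. The groups overlapped, since MYCN-only library 2 lay below every knockout library, so the level of gas7a does not separate the libraries by their genotype labels. Knockout libraries 2 and 3 stood apart through ovary and oocyte transcripts, which summed to 6545 and 8384 CPM there, to 33 CPM in knockout library 1 and to 10.5 to 13.0 CPM in MYCN-only libraries.

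Both brush border genes had lower mean levels in knockout than in MYCN-only tumours. vil1, which encodes the actin-bundling protein villin of the microvilli, had 8.88, 4.93 and 2.54 CPM in knockout tumours, against 114, 35.4 and 94.9 CPM in MYCN-only. The groups did not overlap, and MYCN-only library 2 lay lowest in its group, at 31.1% of library 1 and 37.3% of library 3. In bulk RNA, fewer cells of a type and less RNA per cell cannot be told apart. The log2 fold change of vil1 was -3.90 (SE 0.65), with means of 5.45 ± 3.2 CPM in knockout tumours, against 81.4 ± 41.0 CPM in MYCN-only (SD, n = 3 each). anpepb, a gene of aminopeptidase N, which trims peptides at the brush border, had 14.5, 1.38 and 3.22 CPM in knockout tumours, against 84.5, 10.8 and 72.6 CPM in MYCN-only. Its groups overlapped, because MYCN-only library 2 lay below knockout library 1. The log2 fold change of anpepb was -3.14 (SE 1.1).

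In the uptake genes MYCN-only library 2 lay close to the knockout libraries. slc15a1b encodes PepT1, the intestinal carrier of dipeptides and tripeptides. It had 2.96, 2.35 and 2.41 CPM in knockout tumours, against 88.0, 6.67 and 85.6 CPM in MYCN-only. The knockout libraries agreed within 1.26-fold, while MYCN-only library 2 held 7.58% of the level of library 1. The log2 fold change of slc15a1b was -4.54 (SE 0.95). cd36 encodes a membrane receptor for fatty acids that mammals also use in macrophages, muscle, fat and endothelium. It had 0.415, 0.523 and 0.456 CPM in knockout tumours, against 42.3, 0.356 and 42.9 CPM in MYCN-only. MYCN-only library 2 was the lowest of all 6 libraries, with 4 reads and a 95% Poisson interval of 0.0969 to 0.910 CPM that holds the value of every knockout library. Such intervals cover counting error only. The log2 fold change of cd36 was -5.92 (SE 1.51), a mean of 0.465 ± 0.0543 CPM in knockout tumours, against 28.5 ± 24.4 CPM in MYCN-only (SD, n = 3 each), and it rested on MYCN-only libraries 1 and 3.

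Of the intracellular carriers, fabp2 followed the uptake genes and fabp6 was barely detected. fabp2 encodes the intestinal fatty acid-binding protein. It had 3.63, 1.05 and 0.488 CPM in knockout tumours, against 117, 11.2 and 179 CPM in MYCN-only. The groups did not overlap, with MYCN-only library 2 at 3.08 times the highest knockout library, and the log2 fold change of fabp2 was -5.92 (SE 1.28). fabp6 encodes the bile acid carrier of the distal gut. It was read 2, 0 and 0 times in knockout tumours, against 4, 6 and 5 times in MYCN-only. A count of 0 allows up to 0.112 CPM in knockout library 2 and 0.0977 CPM in knockout library 3, against 0.24 to 0.533 CPM measured in MYCN-only libraries. fabp6 did not pass the low-count filter, and no fold change is given here.

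The transcription factor gene cdx1b, a caudal homologue that takes part in forming the zebrafish gut lining, was also low. It was read 2, 0 and 0 times in knockout tumours, against 65, 2 and 28 times in MYCN-only. These counts correspond to 0.104, 0 and 0 CPM in knockout tumours, against 3.91, 0.178 and 1.62 CPM in MYCN-only. The 95% Poisson interval of MYCN-only library 2, 0.0215 to 0.642 CPM, takes in the 0.104 CPM of knockout library 1. cdx1b did not pass the low-count filter either.

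**Figure D1:**
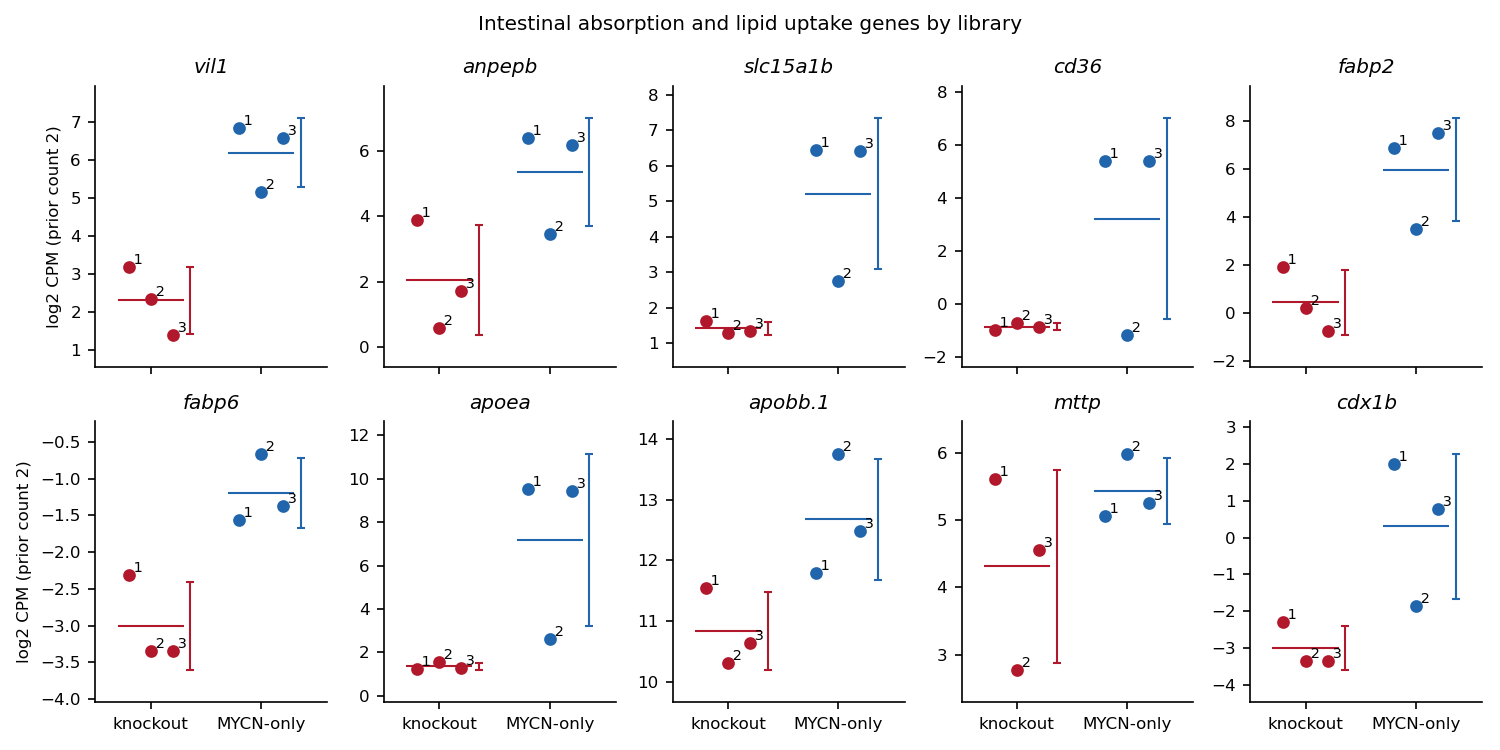
Level of each gene in each library, as log2 CPM with a prior count of 2, for knockout (left, red) and MYCN-only (right, blue) tumours; points carry the library number, lines are group means and bars are the SD (n = 3). MYCN-only library 2 lies below libraries 1 and 3 for vil1, anpepb, slc15a1b, cd36, fabp2, apoea and cdx1b and above them for fabp6, apobb.1 and mttp.

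The lipoprotein genes divided into 2 patterns. apoea, one of the zebrafish genes for apolipoprotein E, a ligand by which cells take up lipoproteins, had 2.23, 2.80 and 2.34 CPM in knockout tumours, against 734, 5.96 and 692 CPM in MYCN-only. MYCN-only library 2 was at 2.13 times the highest knockout library, while MYCN-only libraries 1 and 3 were each at 247 times that library or more. The log2 fold change of apoea was -7.60 (SE 1.67), the lowest of the 8 tested members. apobb.1, a gene of apolipoprotein B, the structural protein of secreted lipoproteins, had 2992, 1270 and 1594 CPM in knockout tumours, against 3537, 13903 and 5750 CPM in MYCN-only. Here MYCN-only library 2 was the highest of all, and MYCN-only library 1 exceeded knockout library 1 by 1.18-fold. The log2 fold change of apobb.1 was -1.99 (SE 0.58), with means of 1952 ± 915 CPM in knockout tumours, against 7730 ± 5459 CPM in MYCN-only (SD, n = 3 each). mttp, the gene of the transfer protein, had 48.9, 6.72 and 23.4 CPM in knockout tumours, against 33.2, 63.4 and 38.1 CPM in MYCN-only. Its groups overlapped, with a log2 fold change of -0.77 (SE 0.68). A further row, zgc:136353, which RefSeq lists as another name of mttp, had 4.21, 0.299 and 1.79 CPM in knockout tumours, against 3.73, 5.16 and 2.42 CPM in MYCN-only, so reads of mttp may be divided between the 2 rows.

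Hepatocyte transcripts were read beside the second pattern. The 16 genes of the hepatocyte list, none of them at 0 and 10 with a fold change below 0, summed to 25898, 5169 and 8289 CPM in knockout tumours, against 568, 27754 and 8389 CPM in MYCN-only. MYCN-only library 2 was the highest MYCN-only library for all 16. apobb.1 and mttp were highest in the same library, while apoea, cd36, slc15a1b and fabp2 were low in it. The order of the other libraries differed. MYCN-only library 1 had the lowest hepatocyte sum of all, and its 3537 CPM of apobb.1 lay above every knockout library. Its 33.2 CPM of mttp lay above knockout libraries 2 and 3 and below knockout library 1. Within a library, apobb.1 had 11.6, 24.6 and 19.2 reads per 100 hepatocyte-list reads in knockout tumours, against 623, 50.1 and 68.5 in MYCN-only. For this summed list the ratio was lower in every knockout library than in any MYCN-only library. The sum depends on the genes that lead it. In knockout library 1 fga had 5355 CPM and fabp10a 219 CPM, against 1992 and 2147 CPM in MYCN-only library 2. Ratios to single genes of the list were not read. Because apobb.1 was chosen in this comparison, nothing is read from the separation. For mttp the reads per 100 hepatocyte-list reads were 0.189, 0.13 and 0.283 in knockout tumours, against 5.85, 0.228 and 0.455 in MYCN-only, and the groups overlapped. The part of liver RNA in the levels of apobb.1 and mttp was not tested.

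**Figure D2:**
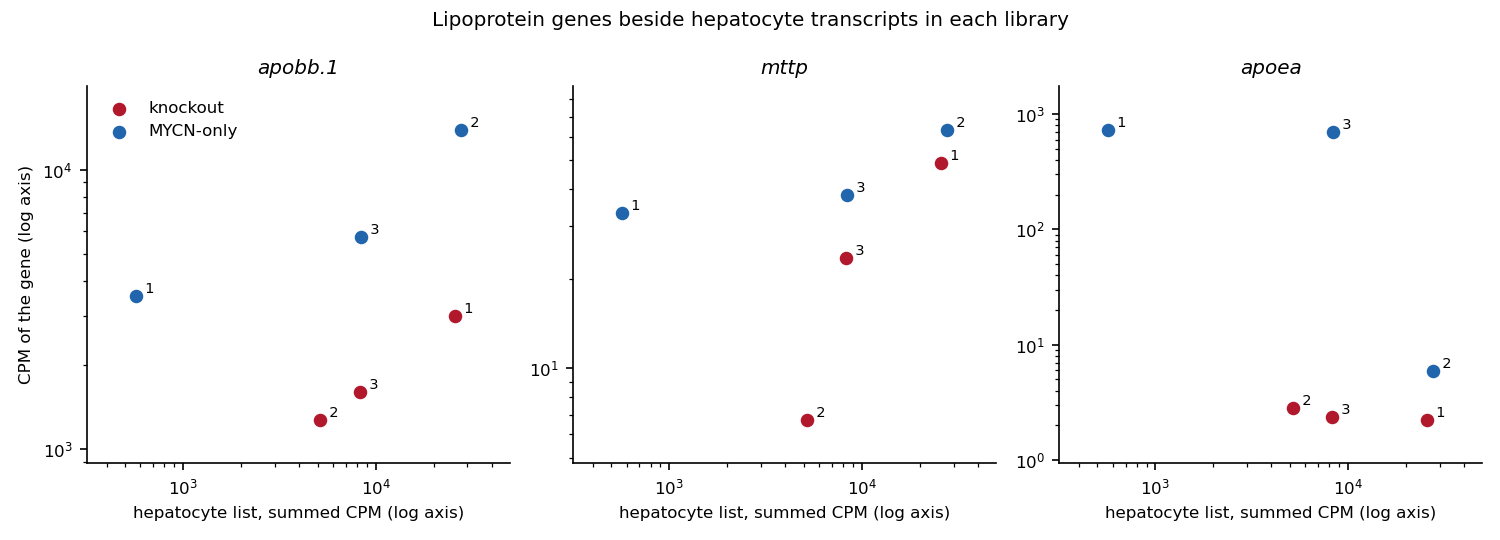
CPM of apobb.1, mttp and apoea (vertical, log axis) against the summed CPM of 16 hepatocyte genes (horizontal, log axis) in 3 knockout (red) and 3 MYCN-only (blue) libraries, numbered by library. MYCN-only library 2 is highest for apobb.1 and mttp and holds the most hepatocyte transcripts, whereas apoea is at 734 and 692 CPM in MYCN-only libraries 1 and 3 and at 5.96 CPM in library 2. MYCN-only library 1 holds the fewest hepatocyte transcripts and has 3537 CPM of apobb.1, more than any knockout library.

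The members did not keep fixed proportions to each other. Per 100 vil1 reads there were 25.1, 56.8 and 92.3 apoea reads in knockout tumours, against 644, 16.8 and 730 in MYCN-only. For fabp2 the ratios were 40.9, 21.2 and 19.2 in knockout tumours, against 103, 31.7 and 189 in MYCN-only. In both ratios MYCN-only library 2 stood with or near the knockout libraries rather than with MYCN-only libraries 1 and 3. For slc15a1b the ratios overlapped between the groups, at 33.3, 47.7 and 94.9 in knockout tumours, against 77.2, 18.8 and 90.3 in MYCN-only.

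Over the whole table, edgeR's quasi-likelihood test called 0 of 12821 genes at an adjusted p under 0.05 (0%), and so 0 of the 8 members that passed the low-count filter. At an unadjusted p under 0.05 in edgeR, 7 of the 8, all but mttp, were lower in knockout, beside 7.57% of all tested genes. The groups did not overlap, with knockout lower, for 5 of the 8 (vil1, slc15a1b, fabp2, apoea and apobb.1), beside 12.3% of all tested genes. The median log2 fold change of the 8 was -4.22, beside 0.04 over all tested genes. Because the members were chosen in this comparison, nothing is read from these shares. DESeq2 called 7 of the 8 as lower (4.02% of all genes called lower), and limma-voom called 0.

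The calls turned on single libraries. Because the members were chosen in this comparison, nothing is read from these calls or shares either. Without MYCN-only library 2, edgeR called apoea, cd36 and slc15a1b as lower, with 0.0305% of all genes called lower. In that library these genes had 5.96, 0.356 and 6.67 CPM, near the knockout libraries, so leaving it out favours their call. Without knockout library 1 edgeR called vil1, fabp2 and anpepb as lower, with 3.51% of all genes called lower. With knockout libraries 2 and 3, which hold ovary transcripts, both left out, 0 members were called, and the log2 fold changes of knockout library 1 against MYCN-only were -3.19 for vil1, -4.34 for slc15a1b, -6.08 for cd36, -4.82 for fabp2 and -7.74 for apoea. In the same fit anpepb stood at -1.95, apobb.1 at -1.35 and mttp at 0.14, the only member that changed direction. Leaving out MYCN-only library 2 moved apobb.1 to -1.23, and leaving out knockout library 1 moved anpepb to -4.60 and fabp2 to -7.07.

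**Figure D3:**
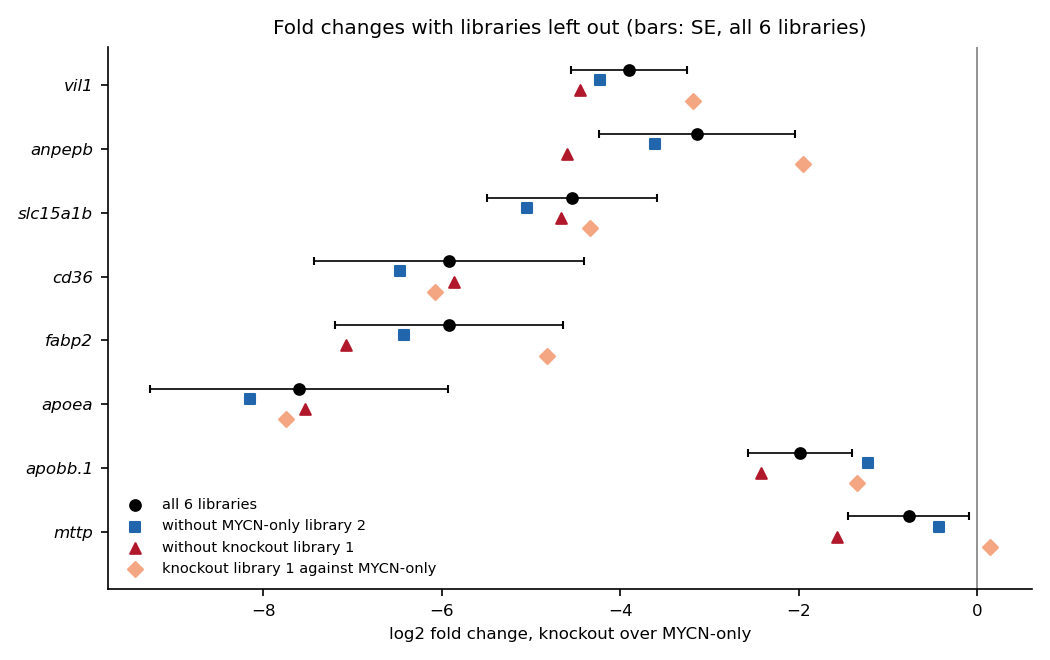
Log2 fold change, knockout over MYCN-only, of the 8 tested members with all 6 libraries (black, bars are the SE), without MYCN-only library 2 (blue), without knockout library 1 (red) and with knockout library 1 alone against MYCN-only (orange). All values but the 0.14 of mttp with knockout library 1 alone lie below 0, and apoea is lowest in each fit.

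Other genes of intestinal absorption were read from 7 lists by role, drawn up without the members but with earlier results of these data known. Their shares are therefore given as a description too. Of 102 genes listed, 74 were matched and 70 were tested. In edgeR 0 of the 70 passed in either direction. At an unadjusted p under 0.05, 20 were lower and 3 higher in knockout (28.6% and 4.29%), beside 7.57% lower and 11.5% higher over all tested genes. Of the 70, 62 had a fold change below 0 and 8 above, whatever its size. Over all 12821 tested genes, 6105 were below 0 and 6716 above, the background for the direction counts of each list. The median log2 fold change of the 70 was -0.96, and it was -1.87 without knockout library 1. DESeq2 called 15 as lower and 2 as higher, beside 4.02% and 6.29% of all tested genes, and limma-voom called 0. Without knockout library 1, edgeR called 18 as lower and 2 as higher, beside 3.51% and 11.2% of all genes. Without MYCN-only library 2 it called 0, and the same count was reached without knockout libraries 2 and 3, where the median over the genes tested was -0.52.

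Among 6 brush border structure genes, 5 had a fold change below 0 (median -1.16). ush1c, which encodes the microvillus scaffold harmonin, had a log2 fold change of -3.54, and cdh17, which encodes the liver-intestine cadherin, one of -2.02. Both were lower without overlap between the groups, as were 50% of this list and 12.3% of all tested genes. In MYCN-only libraries ush1c had 12.9, 4 and 13.1 CPM and cdh17 had 496, 385 and 267 CPM, so cdh17 was not lowest in library 2. eps8l3b stood at -1.43, and pls1, which encodes an actin-bundling plastin, at -0.89. All 9 tested brush border enzyme genes had a fold change below 0 (median -1.59, and -0.84 without MYCN-only library 1), and in 6 of the 9 MYCN-only library 2 was the lowest of its group. mep1b, which encodes a meprin protease subunit, had 0.467, 1.38 and 0.0651 CPM in knockout tumours, against 44.3, 0.533 and 48.3 CPM in MYCN-only. MYCN-only library 2 lay within the knockout range of mep1b and libraries 1 and 3 far above it. mep1a.1, another meprin subunit gene, had 0.779, 2.17 and 0.619 CPM in knockout tumours, against 10.5, 0.533 and 10.5 CPM in MYCN-only, and dpp4, a dipeptidyl peptidase gene, had a log2 fold change of -0.86.

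Of 10 nutrient transporter genes, 8 had a fold change below 0 (median -0.55). That median was -1.24 without knockout library 1, -0.14 without knockout library 2 and 0.13 when knockout libraries 2 and 3 were both dropped. The amino acid carrier gene slc6a19a.1 had a log2 fold change of -2.58 and the hexose carrier gene slc2a5 one of -3.49, while slc5a11 and slc43a2b stood at -0.97 and -0.73. The counts of slc2a5 were low, at 2, 0 and 7 reads in knockout tumours, against 25, 9 and 29 reads in MYCN-only. Of 9 genes of fatty acid, sterol and retinol uptake, 8 had a fold change below 0 (median -1.95, and -1.27 when knockout libraries 2 and 3 were both dropped). fabp1b.1, a liver-type fatty acid-binding protein gene, had 0.0519, 0.672 and 0.0651 CPM in knockout tumours, against 120, 0.356 and 151 CPM in MYCN-only. The retinol carrier gene rbp2a differed from it in MYCN-only library 2, with 14.1, 20.9 and 26.7 CPM in knockout tumours, against 202, 227 and 198 CPM in MYCN-only. The sterol exporter gene abcg8 stood at -2.38. scarb1, which encodes the receptor for high-density lipoprotein, was the exception at 3.50, with 24.1, 216 and 292 CPM in knockout tumours, against 18.7, 13.7 and 14.6 CPM in MYCN-only. Its highest values lay in the 2 knockout libraries with ovary transcripts, whose part in them was not tested.

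Of 18 tested genes of lipid esterification and lipoprotein assembly, 17 had a fold change below 0 (median -0.91), and in 13 MYCN-only library 2 was the highest of its group. Without that library the median was -0.29, against -1.85 without knockout library 1 and -0.38 when knockout libraries 2 and 3 were both dropped. The paired apolipoprotein genes apoa4b.1 and apoa4b.2 separated the 2 patterns seen among the members. apoa4b.2 had 10.1, 3.03 and 4.07 CPM in knockout tumours, against 328, 12.9 and 307 CPM in MYCN-only. apoa4b.1 had 45.8, 12.5 and 27.1 CPM in knockout tumours, against 117, 717 and 282 CPM in MYCN-only. apoa4b.2 thus had the arrangement of apoea and apoa4b.1 that of apobb.1, although reads of such similar copies may be divided uncertainly. The triglyceride synthesis gene dgat1a had a log2 fold change of -2.05. p4hb, which encodes the disulfide isomerase that is also a subunit of the transfer protein complex, stood at 1.49 and was higher in every knockout library.

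Bile acid genes were divided, with 3 of 5 below 0 (median -0.03). The sign of that median turned with the libraries kept: it was 0.83 without MYCN-only library 2, 0.36 without knockout library 3 and 0.56 when knockout libraries 2 and 3 were both dropped, and it was -1.16 without knockout library 1. The ileal bile acid carrier gene slc10a2 stood at -1.81 and nr0b2a, which encodes a nuclear receptor induced by bile acids in mammals, at -2.80. nr0b2a overlapped between the groups, with 3.43, 1.61 and 3.42 CPM in knockout tumours, against 42.4, 1.16 and 15.4 CPM in MYCN-only. The hormone gene fgf19 stood at 2.46 and the exporter gene slc51a at 0.53, both with overlap between the groups. fgf19 had 1.4, 9.26 and 5.31 CPM in knockout tumours, against 0.24, 2.13 and 0.577 CPM in MYCN-only. Its highest values lay in knockout libraries 2 and 3, which hold ovary transcripts, whose part in them was not tested. slc51a had 157, 11.1 and 30.1 CPM in knockout tumours, against 28.6, 62.6 and 46.7 CPM in MYCN-only, highest in knockout library 1. Of 13 tested gut transcription factor genes, 12 had a fold change below 0 (median -1.14). That median was -0.40 without MYCN-only library 2, -2.04 without knockout library 1 and -0.34 when knockout libraries 2 and 3 were both dropped. hnf1ba and hnf1bb stood at -1.54 and -2.01. They were lower without overlap between the groups, 15.4% of the tested list beside 12.3% of all tested genes. creb3l3a stood at -1.80 with overlap. It had 6.13, 6.28 and 1.63 CPM in knockout tumours, against 4.03, 32.7 and 12.3 CPM in MYCN-only. In MYCN-only libraries hnf1ba had 119, 121 and 133 CPM and hnf1bb had 82.7, 87.1 and 71.5 CPM, so neither was lowest in library 2. cdx1a, a paralogue of cdx1b, was listed at 0 in every library.

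**Figure D4:**
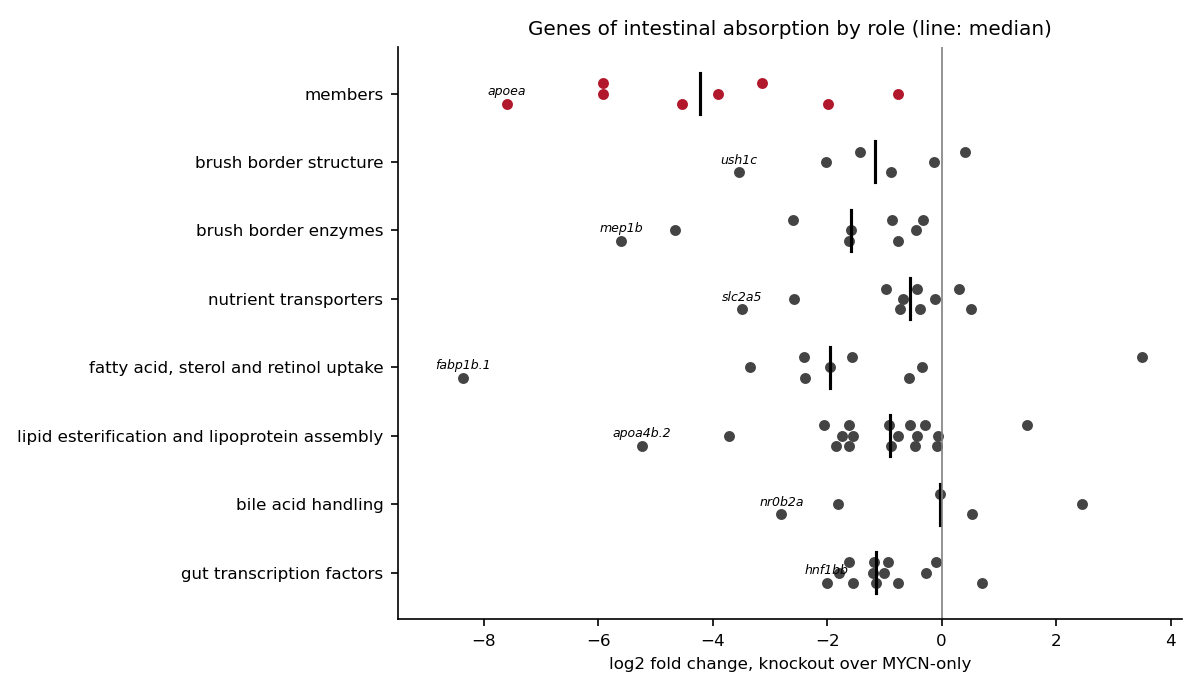
Log2 fold change, knockout over MYCN-only, of the 8 tested members (red) and of the 70 other tested genes of intestinal absorption by role (grey), each point a gene, with the median of each row as a line and the lowest gene named. Medians run from -4.22 for the members to -0.03 for bile acid handling, and fabp1b.1 and apoea have the lowest values of the plot.

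Outside the members, the 8 tested genes whose profile over the 6 libraries lay closest to the mean profile of the tested members were zgc:158846, gnrhr1 (a receptor of gonadotropin-releasing hormone), zgc:154142, slc34a2a, krt97 (a keratin), hbl3 (a lectin), tekt2 (a tektin of cilia) and apoa4b.2. Likeness was the root mean square distance between log2 CPM profiles centred on their own means, and it ran from 0.43 for zgc:158846 to 0.72 for apoa4b.2. The members themselves lay at 0.41 (slc15a1b) to 1.85 (mttp) from that mean. zgc:158846 had 9.03, 7.06 and 5.54 CPM in knockout tumours, against 93.0, 23.6 and 117 CPM in MYCN-only. slc34a2a, which encodes a phosphate carrier, had 2.08, 0.710 and 0.261 CPM in knockout tumours, against 44.6, 3.11 and 20.4 CPM in MYCN-only.

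In the gene order of RefSeq assembly GRCz12tu, apoea lies next to apoa4a, a related apolipoprotein gene. apoa4a had 4.36, 0.710 and 0.879 CPM in knockout tumours, against 8.59, 1.51 and 7.96 CPM in MYCN-only. MYCN-only library 2 was low there too, but the groups overlapped, with a log2 fold change of -1.61. The next gene on that side, tomm40l, a mitochondrial import gene, was at 31.2 to 41.5 CPM in knockout tumours, against 33.3 to 41.9 CPM in MYCN-only libraries. On the other side the nearest gene was not matched, and psmd4a and pip5k1aa beyond it stood at 0.52 and -0.11. This stretch was picked after neighbours of other members had been read, and a shared cause was not tested.

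Cell types other than enterocytes that can carry these genes were read from further lists. Exocrine pancreas genes summed to 125, 450 and 258 CPM in knockout tumours, against 757, 2200 and 2146 CPM in MYCN-only, and 15 of 17 were lower without overlap, beside 12.3% of all tested genes, with cpa4 at 0 in some libraries. Unlike apoea and cd36, this list was not low in MYCN-only library 2. Kidney tubule genes, a source of aminopeptidase N in mammals, summed to 411 to 942 CPM in knockout tumours, against 1222 to 1337 CPM in MYCN-only libraries, with 8 of 10 below 0 and none at 0. For cd36, macrophage genes summed to 326 to 865 CPM in knockout tumours, against 467 to 681 CPM in MYCN-only libraries (10 of 12 above 0, none at 0), and endothelial genes to 366 to 1390 CPM in knockout and 717 to 815 CPM in MYCN-only libraries (10 of 13 below 0, none at 0). Adipocyte genes summed to 78.8 to 419 CPM in knockout tumours, against 82.1 to 498 CPM in MYCN-only libraries, with fabp11b at 0 in some. In MYCN-only library 2, where cd36 was at 0.356 CPM, the macrophage, endothelial and adipocyte lists stood at 501, 815 and 498 CPM. Smooth muscle genes, which the gut wall also holds, summed to 109 to 258 CPM in knockout tumours, against 327 to 579 CPM in MYCN-only libraries, with cnn1a at 0 in some. Of the goblet cell list agr2 and galnt7 were matched, and agr2 had 11.3, 1.98 and 0.977 CPM in knockout tumours, against 10.5, 47.6 and 11.2 CPM in MYCN-only. galnt7 had 50.4, 47.8 and 45.1 CPM in knockout tumours, against 38.1, 35.0 and 27.0 CPM in MYCN-only. It was higher without overlap, as were 11.6% of all tested genes. The enteroendocrine list summed to 10600 CPM in knockout library 1, of which vipb gave 10327 CPM, and to 23.7 to 121 CPM in the other libraries. Of its 6 tested genes, 4 had a fold change below 0 and 2 above, vipb at 10.25 (SE 4.04) and insl5a at 1.20. Both were highest in knockout library 1, and the groups overlapped. vipb had 10327, 0.411 and 0.326 CPM in knockout tumours, against 2.82, 4.44 and 1.27 CPM in MYCN-only. Its knockout libraries 2 and 3 thus lay below every MYCN-only library. The cell source of vipb was not tested, so the sum of knockout library 1 is no measure of enteroendocrine cells. insl5a had 265, 16.5 and 48.9 CPM in knockout tumours, against 36.5, 38.8 and 68.4 CPM in MYCN-only. neurod1, which was not tested, was read 0, 0 and 2 times in knockout tumours, against 8, 16 and 34 times in MYCN-only. gcgb, insl5b, ghrl and adcyap1a were also at 0 in some libraries. The part of these cell types in the levels of the members was not tested.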

How the data were processed

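Total RNA from zebrafish tumours was made into stranded, paired-end libraries, per the labels' protocols. The deposited table holds raw counts for each gene symbol. Per the submitters' processing notes, the authors used TopHat2 (2.0.14), Bowtie2 (2.2.6), Subread and, for counting, featureCounts (1.4.6), with the build danRer10. No source used here states the strand setting, the annotation or how multiply mapped reads were counted, so overlapping genes and similar copies cannot be told apart with certainty.

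Libraries were grouped by the genotype in their titles. Genes were filtered with filterByExpr (12821 left) and scaled by TMM. Knockout was tested over MYCN-only with edgeR's quasi-likelihood method, with Benjamini-Hochberg adjustment over all genes and a threshold of 0.05. The fitted biological coefficient of variation came to 52.5%. Standard errors are the fold change over the root of F. CPM use TMM-scaled library sizes, log2 CPM a prior count of 2. A limit for a count of 0 is 3 counts of the library. Simulated counts gave every gene the same fitted spread (12743 genes). There 24.0% of genes changed 4-fold and 98.5% of those changed 16-fold were recovered. MYCN-only libraries differed 123-fold for apoea and 121-fold for cd36, so these rates do not apply to members that spread so widely. Every pair of libraries differed beyond sampling noise (lowest chi-square per degree of freedom 65.2).

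The members, the 7 absorption lists and the 11 cell type lists were chosen with earlier results of these data known. Missing symbols were matched through RefSeq synonyms (GRCz12tu, names and gene order only). Genes named are the members, gas7a, up to 4 genes with the smallest p of each absorption list and the 8 nearest profiles. Cell type lists are given by their sums, with their 2 most abundant genes named. Further, cdx1a, apoa4a, tomm40l, psmd4a, pip5k1aa, zgc:136353, fabp10a, vipb and genes at 0 were named after their values were seen. Alternatives were other scalings, no low-count filter, DESeq2, limma-voom, a replicate block and fits with libraries left out. Promoter motifs were not analysed here. A few genes that this rule names are not reported here. R 4.3.3, edgeR 4.0.16, limma 3.58.1, DESeq2 1.42.0 and Python 3.11 were used.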

Additional observations from a re-analysis of the deposited data

How the results depend on the processing

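The number of genes called over the whole table, 0 in edgeR, was 1323 in DESeq2, 1 in limma-voom, 8 with the replicate number as a block and 9 with knockout libraries 2 and 3 left out, and ran from 0 to 1923 when each library was left out. Of the members, 7 were called in DESeq2, 0 in limma-voom and 0 to 3 with a library left out. Of the absorption lists, 17 genes were called in DESeq2 and 0 to 20 with a library left out. The cause was not tested. Other scalings in edgeR and no low-count filter gave 0 calls. The median log2 fold change of the 8 tested members, -4.22, ran from -4.64 to -3.88 with a library left out and was -3.94 with the replicate block. Over 104 values of single members under other settings, 103 were below 0 and 1 was above 0 (mttp, 0.14, with knockout libraries 2 and 3 left out). Of the 104, 0 moved by more than the SD between replicates, which is an SD of single libraries. Leaving out 1 library of 3 can hardly move a group mean by that much, so this count does not measure stability. Upper-quartile scaling shifted all genes by -0.18 (log2), and the members with them. Deviations from the group mean correlated across genes at -0.093, -0.153 and 0.190 for libraries with the same number (1, 2 and 3). Pairs with different numbers ran from -0.163 to 0.198, so the value of number 3 lay near their upper end. Same-numbered libraries thus did not deviate together beyond the range of other pairs, and the block pairs nothing the labels describe. The planned motif search and its alternative were not run. fabp6 and cdx1b did not pass the low-count filter with all 6 libraries, so the text gives no fold change for them. With no such filter their log2 fold changes were -3.32 and -5.77, and cdx1b passed the filter in 5 of the fits that left libraries out, at -8.31 to -4.11. The fit with 1 knockout library assumes that it varies like the MYCN-only libraries.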
